A study of Mus musculus with 8 samples.

Results

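The genes described here encode the proteins of the mitochondrial ribosome. They were taken as the protein-coding rows of the deposited table whose GENCODE M21 symbol is Mrpl or Mrps followed by a number, which gave 78 of 55450 genes. Of these, 49 carry a large-subunit symbol (Mrpl) and 29 a small-subunit symbol (Mrps). A further 5 rows with such symbols are annotated as pseudogenes and were not counted as members. Total RNA was sequenced from the macrophage-like mouse line RAW264.7 expressing either a non-silencing short hairpin RNA (shNS) or a hairpin against the exoribonuclease gene Dis3l2 (shDis3l2). Doxycycline was given daily at 1 µg/mL for 4 days to 3 libraries per line, 1 library per line had none, and the medium of all 8 held penicillin-streptomycin. No label says whether replicates came from separate cultures or whether a line is a clone, so a p-value here measures only how these samples spread, which may be technical. Doxycycline is commonly used to switch on a hairpin, so in the shDis3l2 line an action of the drug and of the knockdown cannot be told apart.

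Mitochondrial ribosomes translate the few proteins that mitochondrial DNA encodes, all of them core subunits of the respiratory chain and ATP synthase. Their ribosomal RNAs are transcribed in the organelle, whereas every one of their proteins is encoded in the nucleus, made in the cytoplasm and imported. Doxycycline, a tetracycline, binds bacterial ribosomes and also inhibits translation by mitochondrial ribosomes, and mammalian cells are known to answer such a block with the ATF4-driven stress program. Symbols do not always give a protein's place: Mrps30 and Mrps18a belong to the large subunit in mammalian structures, Mrps36 acts as a component of the 2-oxoglutarate dehydrogenase complex, and Mrpl58 is a peptidyl-tRNA hydrolase.

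Libraries held 30341823 to 45557804 counts, and a member had between 225 and 7693 counts in a library. Dis3l2, which checks the line labels of the treated libraries, stood at 33.03, 28.7 and 22.02 CPM (counts scaled to the size of the library) in shNS with doxycycline and at 12, 13.5 and 14.9 in shDis3l2 with doxycycline. Without doxycycline it stood at 29.7 in shNS and 28.6 in shDis3l2, so it does not check the line labels of the untreated libraries. All 12 macrophage markers on the list exceeded 1 CPM in every library, with a summed level of 10200 to 14700 in shNS and 8580 to 11600 in shDis3l2 with doxycycline, and 8700 and 8260 without it. Markers of epithelial cells were at 0, those of B cells and fibroblasts summed to at most 0.0584 CPM, and those of T cells to at most 3.05 CPM with Cd3e, Cd3g, Cd2 and Cd8a at 0. Of the 4 neutrophil markers 2 were detected, and their sum reached 40.9 CPM in untreated shNS and 19.1 CPM in shNS with doxycycline against at most 0.118 CPM in shDis3l2. The part of these markers in the member values was not tested. Replicate 2 of shNS with doxycycline resembled the untreated shNS library (r = 0.984 across genes) more than replicate 1 (0.939) or replicate 3 (0.945) of its own group. Replicates 1 and 3 correlated with untreated shNS at 0.9354 and 0.9349, below their 0.9425 to 0.9531 with the shDis3l2 libraries. In bulk RNA, fewer cells expressing a gene and less RNA per cell cannot be told apart.

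All 78 members were expressed in every library and passed the filter on low counts. Divided by the length of the principal transcript, their levels ran from 5.48 to 89.6 CPM per kilobase, a 16.4-fold range around a median of 21.7. Highest were Mrps21 (89.6), Mrps6 (83.6), Mrpl33 (79.9), Mrpl12 (77.2) and Mrpl42 (69.2). Among these, Mrps21, Mrps6 and Mrpl33 are homologues of bacterial ribosomal proteins, Mrpl12 is the stalk protein that has also been reported to bind the mitochondrial RNA polymerase in human cells, and Mrpl42 is specific to mitochondria. Lowest were Mrps25 (5.48), Mrpl35 (5.72), Mrpl47 (6.10), Mrpl48 (6.58) and Mrps17 (6.94). Each of these proteins is built into a ribosome in a fixed copy number, and the values here are of RNA only. With the union of all annotated exons as the length, the median level was 13.5 CPM per kilobase and Mrpl33 stood at 5.21, so single ranks depend on the transcript chosen. The 3 genes of the Mrps18 family, Mrps18a, Mrps18b and Mrps18c, stood at 40.3, 33.4 and 21.6 CPM per kilobase, and none passed the test between lines (edgeR adjusted p of 0.910, 0.755 and 0.563). Mrps12, homologue of the bacterial protein at the decoding centre, was among the low genes by count and ranged from 7.08 to 12.03 CPM, with the highest value in replicate 1 of shDis3l2 with doxycycline.

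**Figure D1:**
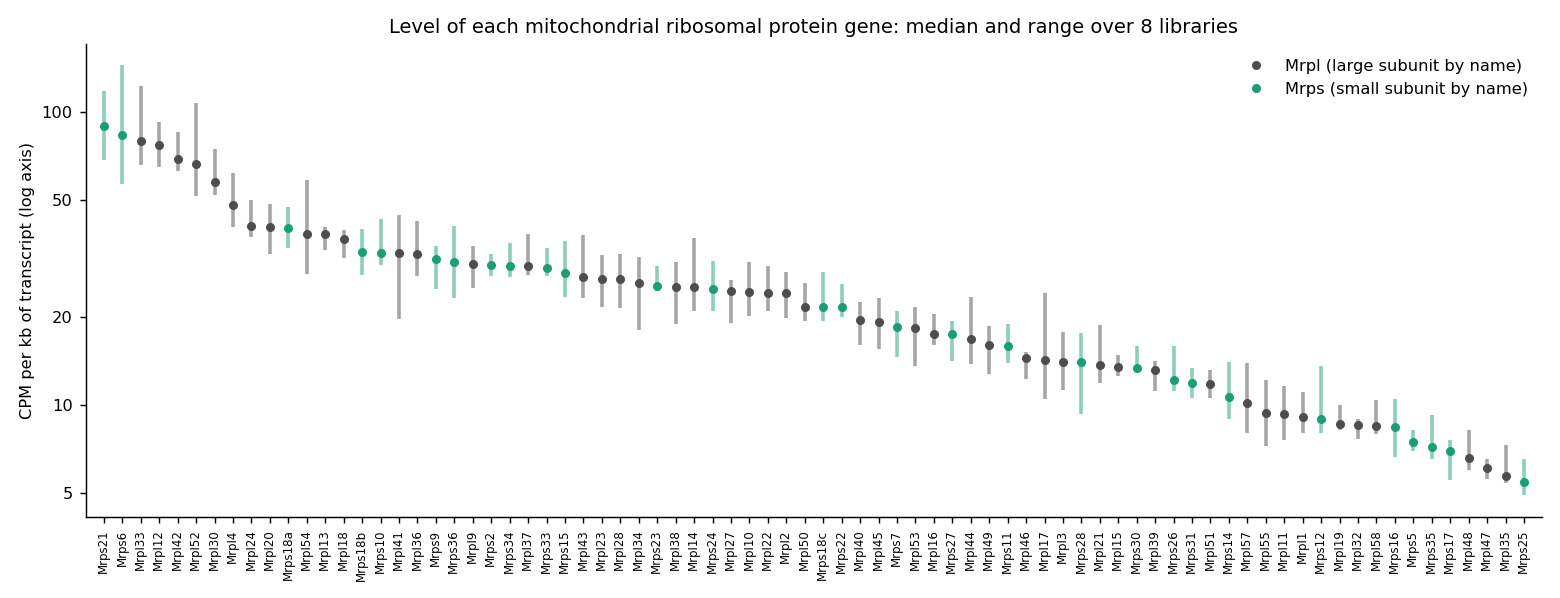
Level of each of the 78 genes in CPM per kilobase of principal transcript, on a log axis, as the median over the 8 libraries with the range over libraries, ordered by level. Levels run from 5.48 (Mrps25) to 89.6 (Mrps21), and large- and small-subunit genes are mixed along the order.

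Mitoribosomal genes varied less between libraries than most genes. The highest library exceeded the lowest by a median of 1.43-fold per member (1.16 to 2.53), and 73 of 78 stayed under 2-fold, against a median of 1.99-fold and 50.4% of all genes under 2-fold. Members are also expressed above the median gene (30.9 against 17.2 CPM), and the part of the level in the smaller spread was not tested. The widest ranges were those of Mrps6 (2.53-fold), Mrpl17 (2.30), Mrpl41 (2.27), Mrpl54 (2.10) and Mrpl52 (2.08). The libraries did not share the extremes evenly. Replicate 1 of shDis3l2 with doxycycline was the highest of the 8 for 45 members (57.7%, against 19.4% of all genes), and the untreated shDis3l2 library was the lowest for 33 (42.3%, against 13.9%).

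Summed over the 78 genes, the level was 2526, 2766 and 2842 CPM in shNS with doxycycline and 3115, 2590 and 2596 in shDis3l2 with doxycycline. Without doxycycline the sum was 2722 CPM in shNS and 2455 in shDis3l2. The groups overlapped, because only replicate 1 of shDis3l2 lay above the shNS libraries and the other two lay among them. Large-subunit genes together held 1.74 to 2.02 times the summed CPM of small-subunit genes in the 7 other libraries and 1.72 times in untreated shDis3l2.

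**Figure D2:**
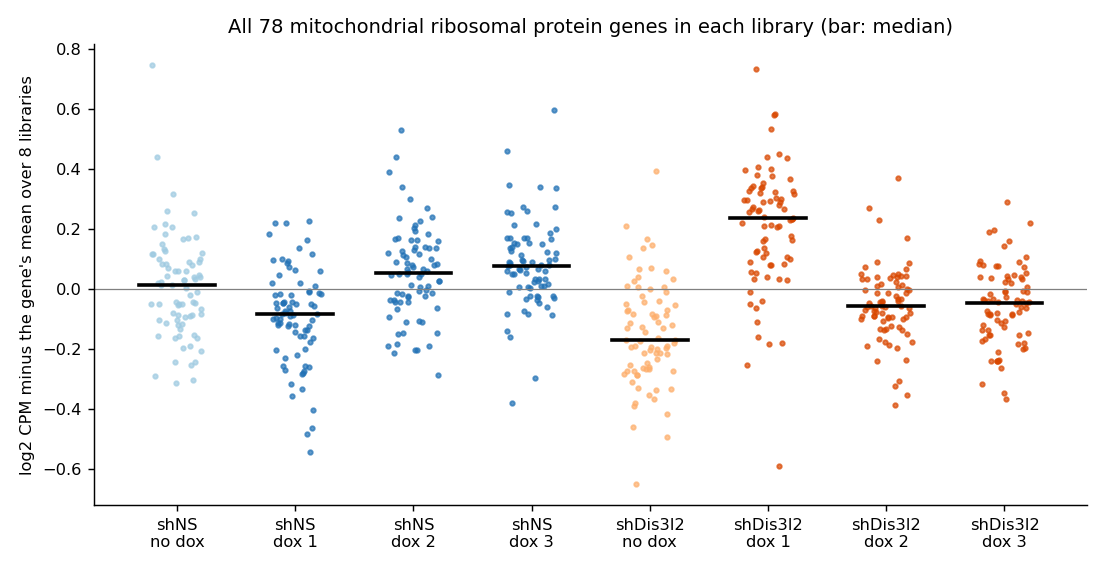
Log2 level of each of the 78 genes in each library after subtracting the gene's own mean over the 8 libraries, with the median marked. Medians lie at -0.08, 0.05 and 0.08 in shNS with doxycycline, 0.24, -0.06 and -0.05 in shDis3l2 with doxycycline, and 0.01 and -0.17 without doxycycline in shNS and shDis3l2.

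With doxycycline, few mitoribosomal genes were called different between the knockdown line and shNS. By edgeR's quasi-likelihood test at an adjusted p of 0.05, 1 member rose, Mrpl54, and 1 fell, Mrpl45, so 2 of 78 were called where 6.14% of the 13752 genes tested were called. Called higher were 2.13% of all genes and called lower 4.01%. An unadjusted p under 0.05 was reached by 6 members (7.69%) and by 20.8% of all genes. The median log2 difference was 0.02 for the members and -0.0023 for all genes, with 45 members above 0 and 33 below. Member differences ran from -0.48 to 0.75, none reaching 2-fold, which 11.7% of all genes did. Large-subunit genes (median 0.02, 30 of 49 above 0) and small-subunit genes (median 0.01, 15 of 29 above 0) lay together. Without replicate 1 of shDis3l2, the median was -0.07 and 27 of 78 lay above 0.

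Mrpl54 (ENSMUSG00000034932, chromosome 10, 81264713 to 81266934, GRCm38), a mitochondria-specific protein of the large subunit, was measured at 16.9, 20.5 and 18.1 CPM in shNS and at 35.4, 30.5 and 27.5 CPM in shDis3l2 with doxycycline. All 3 shDis3l2 libraries lay above all 3 shNS libraries. Its mean went from 18.5 ± 1.85 to 31.2 ± 3.99 CPM (SD, n = 3), a log2 change of 0.75 with a standard error of 0.15 and an edgeR adjusted p of 0.0310. Untreated shDis3l2 cells stood at 26.0 CPM against 19.96 in untreated shNS. The call was lost without shNS replicate 3 (adjusted p = 0.0733) and without shDis3l2 replicate 1, 2 or 3 (0.0760, 0.120 and 0.0704).

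Mrpl45 (ENSMUSG00000018882, chromosome 11, 97315716 to 97329920) encodes the large-subunit protein at the mouth of the exit tunnel that helps hold the ribosome at the inner membrane. Its levels were 54.6, 54.6 and 56.4 CPM in shNS and 41.1, 37.7 and 39.5 CPM in shDis3l2 with doxycycline, so the groups did not overlap. The mean went from 55.2 ± 1.02 to 39.4 ± 1.68 CPM (SD, n = 3), a log2 change of -0.48 with a standard error of 0.11 and an edgeR adjusted p of 0.0485. Without doxycycline it stood at 49.6 CPM in shNS and 44.0 in shDis3l2. The call sat at the threshold, since leaving out any 1 of the 6 libraries raised the adjusted p to between 0.0595 and 0.266.

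Mrpl33, Mrpl44 and Mrpl17 also lay higher in every shDis3l2 library with doxycycline than in any shNS library, without passing the test. Mrpl33 (ENSMUSG00000106918, chromosome 5), homologue of a small bacterial large-subunit protein, stood at 32.2, 31.99 and 35.5 CPM in shNS and 58.5, 45.8 and 43.2 in shDis3l2 (log2 difference 0.57, standard error 0.15, edgeR adjusted p = 0.0741). Mrpl44 (ENSMUSG00000026248, chromosome 1), a mitochondria-specific protein with a ribonuclease III-like fold, stood at 21.03, 22.01 and 25.7 CPM in shNS and 33.3, 30.3 and 30.7 in shDis3l2 (0.46, standard error 0.13, adjusted p = 0.0932). Mrpl17 (ENSMUSG00000030879, chromosome 7), homologue of a bacterial protein near the exit tunnel, stood at 76.6, 91.8 and 112 CPM in shNS and 176, 119 and 121 in shDis3l2 (0.57, standard error 0.21, adjusted p = 0.170). In Mrpl17 and Mrpl33, replicate 1 of shDis3l2 stood well above the other 2. DESeq2 called Mrpl33 (adjusted p = 0.0220) and Mrpl44 (0.0489) in addition to Mrpl54 and Mrpl45. In all, 6 members had non-overlapping groups with shDis3l2 above, adding Mrps11 and Mrps33, where 13.2% of all genes did, and 2 members, Mrpl45 and Mrps6, had shDis3l2 below, where 14.6% of all genes did.

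Mrps6 (ENSMUSG00000039680, chromosome 16, 92058270 to 92112227), homologue of a bacterial small-subunit protein at the platform, had the widest range of all members. It stood at 64.8, 83.2 and 76.6 CPM in shNS and 48.2, 55.5 and 60.5 CPM in shDis3l2 with doxycycline, and at 122 and 95.4 CPM in untreated shNS and shDis3l2. Both untreated libraries lay above all 6 treated ones. The log2 effect of doxycycline was -0.71 in shNS and -0.80 in shDis3l2, each with a standard error of 0.20, and their mean was -0.75 with a standard error of 0.14. In edgeR that mean ranked 17 of 15250 genes by p (unadjusted p = 0.0011) and did not pass the adjustment (0.950). DESeq2 called it (-0.76, adjusted p = 0.0111). Between the lines with doxycycline the log2 difference was -0.45 with a standard error of 0.15 (edgeR adjusted p = 0.138). Mrps6 shares 159 of its 1533 exon bases with Slc5a3, the sodium/myo-inositol cotransporter, on the same strand. Slc5a3 stood at 522, 660 and 309 CPM in shNS and 98.2, 206 and 263 CPM in shDis3l2 with doxycycline, and at 963 and 806 CPM in the untreated libraries. Its levels were thus also highest in both untreated libraries, and its part in the Mrps6 values was not tested.

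**Figure D3:**
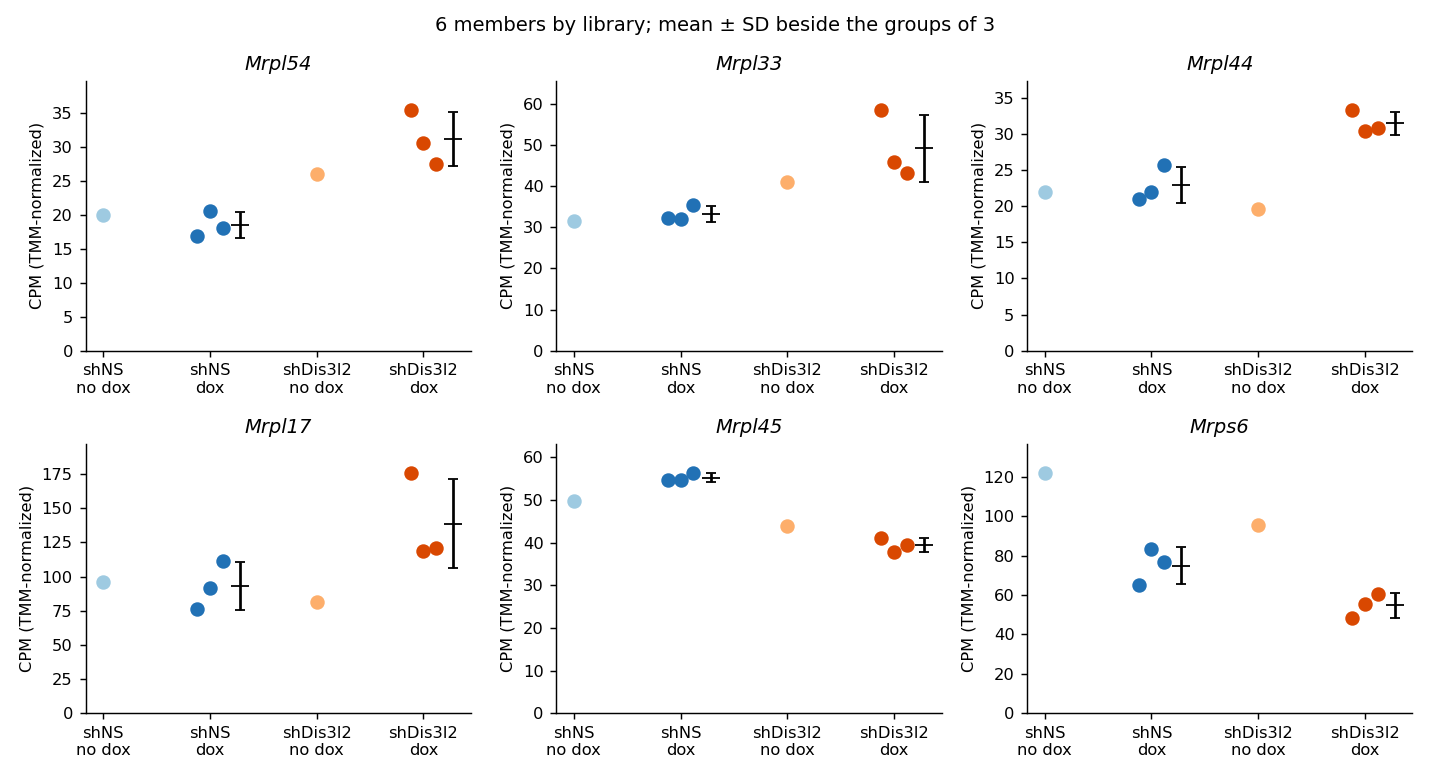
CPM of Mrpl54, Mrpl33, Mrpl44, Mrpl17, Mrpl45 and Mrps6 in every library, with the mean and SD of the groups of 3 and single points for the libraries without doxycycline. Mrpl54 spans 16.9 to 20.5 in shNS and 27.5 to 35.4 in shDis3l2 with doxycycline, and Mrps6 is highest in the untreated libraries (122 and 95.4).

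Promoter sequence was set beside the members that stood out. RefSeq promoters on GRCm38.p6, from 250 bases before to 50 after a gene's start, were matched by symbol for 69 of the 78 members (75 promoters). Mrpl54, the member called higher in shDis3l2, was not among them. They were searched on both strands for exact words taken as core motifs of nuclear respiratory factor 1 (GCATGCGC), of ETS-family factors such as GABP (CCGGAAG), of YY1 (AAGATGGC) and of Sp/KLF factors (GGGCGGG), and for the TATA word TATAAA. The ETS word was found in 34.7% of member promoters and in 11.6% of 21229 protein-coding promoters, the YY1 word in 16.0% and 3.0%, and the NRF1 core in 10.7% and 3.5%. The Sp/KLF word was found in 42.7% and 33.9%, and the TATA word in 6.7% and 12.6%. Member promoters held a median of 21 CpG sites and 58.7% GC, against 13 and 56.3% for protein-coding promoters, and the part of base composition in these shares was not tested. A match is a description of the letters and not evidence of binding.

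The promoters of 5 of the genes named above are shown so that the words can be read in place. Each is written 5′ to 3′ along the gene's own strand, with capitals marking the searched words on either strand.
Mrpl17, chr7:105811038-105811337, minus strand: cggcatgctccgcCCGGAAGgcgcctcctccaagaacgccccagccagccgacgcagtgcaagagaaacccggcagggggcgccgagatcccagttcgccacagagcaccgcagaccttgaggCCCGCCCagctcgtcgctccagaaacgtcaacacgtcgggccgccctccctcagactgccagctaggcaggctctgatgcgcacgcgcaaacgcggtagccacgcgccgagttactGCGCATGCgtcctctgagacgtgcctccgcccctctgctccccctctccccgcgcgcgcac
Mrpl33, chr5:31613701-31614000, plus strand: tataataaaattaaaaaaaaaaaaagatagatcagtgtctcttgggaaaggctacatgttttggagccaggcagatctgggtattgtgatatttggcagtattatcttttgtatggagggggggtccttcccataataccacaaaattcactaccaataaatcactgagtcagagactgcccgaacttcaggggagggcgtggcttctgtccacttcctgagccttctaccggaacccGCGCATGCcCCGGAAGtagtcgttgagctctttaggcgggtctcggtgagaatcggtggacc
Mrpl44, chr1:79775768-79776067, plus strand: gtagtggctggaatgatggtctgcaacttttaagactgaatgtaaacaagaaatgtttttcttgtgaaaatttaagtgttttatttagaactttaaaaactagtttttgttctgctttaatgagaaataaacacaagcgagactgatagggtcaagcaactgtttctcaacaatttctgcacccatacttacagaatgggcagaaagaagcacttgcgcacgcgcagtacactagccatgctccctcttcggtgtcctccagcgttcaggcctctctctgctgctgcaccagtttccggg
Mrpl45, chr11:97315466-97315765, plus strand: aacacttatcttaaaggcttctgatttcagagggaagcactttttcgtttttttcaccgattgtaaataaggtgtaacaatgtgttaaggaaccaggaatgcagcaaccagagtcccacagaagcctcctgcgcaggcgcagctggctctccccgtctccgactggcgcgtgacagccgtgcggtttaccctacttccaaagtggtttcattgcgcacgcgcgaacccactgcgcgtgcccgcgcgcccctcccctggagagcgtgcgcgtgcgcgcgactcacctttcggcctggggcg
Mrps6, chr16:92058086-92058385, plus strand: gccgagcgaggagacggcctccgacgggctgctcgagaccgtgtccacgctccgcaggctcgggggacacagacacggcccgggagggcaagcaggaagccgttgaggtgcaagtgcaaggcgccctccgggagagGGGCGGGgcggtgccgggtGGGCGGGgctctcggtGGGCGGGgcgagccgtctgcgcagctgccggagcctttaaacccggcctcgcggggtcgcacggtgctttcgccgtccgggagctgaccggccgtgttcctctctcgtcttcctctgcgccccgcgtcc
Mrpl17 holds the NRF1 core, the ETS word and the Sp/KLF word, and Mrpl33 the NRF1 core directly followed by the ETS word after 1 base. Mrps6 holds the Sp/KLF word in 3 places. In the Mrpl44 and Mrpl45 windows none of the searched words was found. Genes with and without these words thus stand on both the higher and the lower side of the line comparison.

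Without doxycycline there was 1 library per line, and the values have no replicate check and no test. In that pair the shDis3l2 library stood below the shNS library for 58 of 78 members, with a median log2 ratio of -0.17, against -0.0020 for all genes. Differences of at least 2-fold were seen in 1 member, Mrpl41 (32.5 CPM in shNS and 15.3 in shDis3l2, log2 ratio -1.09), where 20.8% of all genes differed as much. Below it came Mrpl38 (-0.63) and Mrpl34 (-0.61). The highest ratios were those of Mrps17 (0.45), Mrpl23 (0.45), Mrpl33 (0.38) and Mrpl54 (0.38). Mrpl54 and Mrpl33 were thus on the higher side in both doxycycline states, and Mrpl45 was on the lower side in both (-0.17 without doxycycline). Over the whole set, 15 members were higher in shDis3l2 in both states, 28 lower in both, 30 higher with and lower without doxycycline, and 5 the reverse. The same direction was therefore seen in 55.1% of members and in 68.5% of all genes.

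**Figure D4:**
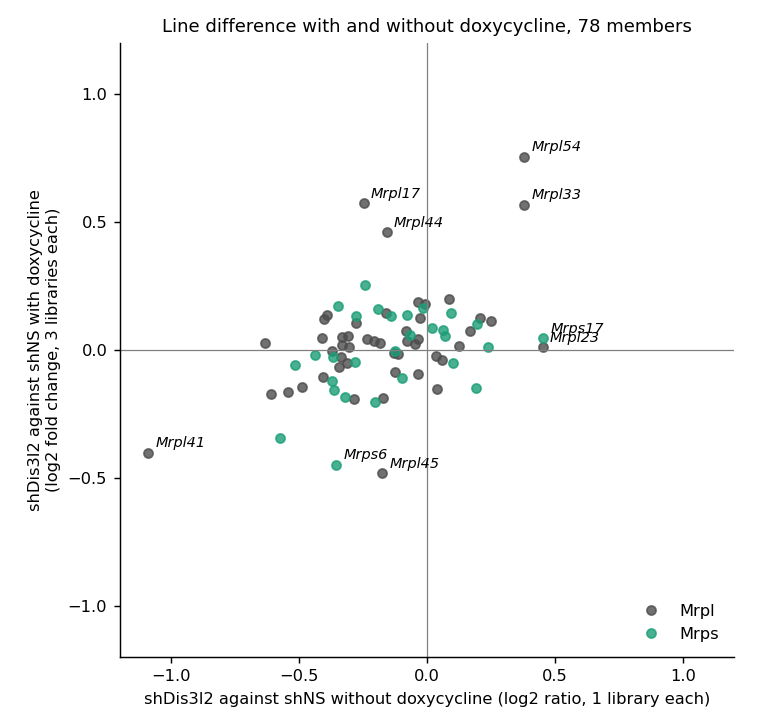
Log2 difference between shDis3l2 and shNS for each of the 78 genes, without doxycycline (1 library per line, horizontal axis) and with it (3 libraries per line, vertical axis). Most points lie below 0 on the horizontal axis (58 of 78), Mrpl54 and Mrpl33 are positive on both axes, and Mrpl41 is lowest without doxycycline (-1.09).

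The effect of doxycycline was set out in each line as the 3 treated libraries against the 1 untreated library, in a fit of all 8 libraries. In shNS, the members were split evenly, with 39 above and 39 below 0 and a median log2 effect of 0.01, beside 0.01 for all genes. The 3 treated shNS libraries include replicate 2, which resembled the untreated shNS library more than its own group. In shDis3l2, 66 of 78 (84.6%) were above 0 with a median of 0.21, against 50.6% of all genes and a median of 0.0039. The shift was seen in both subunits there, with a median of 0.22 in large-subunit genes (44 of 49 above 0) and 0.16 in small-subunit genes (22 of 29). Without replicate 1 of shDis3l2 the median was 0.11 and 59 of 78 were above 0, and every one of these values rests on the same untreated library. Without replicate 1 of shNS the shNS median was 0.09 (52 above 0), without replicate 2 it was -0.02 (36) and without replicate 3 -0.04 (28).

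No member was called in either line, nor for the mean effect or the difference between lines. edgeR called 0% of the 15250 genes in any of these 4 tests, with 646, 504, 598 and 577 genes at an unadjusted p under 0.05 for shNS, shDis3l2, their mean and their difference, among them 1, 3, 2 and 0 members. DESeq2 called 72, 64, 60 and 34 genes, of which 1 was a member, Mrps6 in the mean effect, and limma-voom called 1, 0, 0 and 0. Without shNS replicate 2, edgeR called 544 genes in shNS, 166 for the mean and 121 for the difference, and still no member. In edgeR's fit of all 8 libraries, the smallest member p adjusted over all genes was 0.950 (Mrps6, mean effect), which was 0.0111 by DESeq2 and 0.0640 by edgeR without shNS replicate 2.

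Counted library by library, the untreated shDis3l2 library lay below all 3 treated libraries for 51 members, where 29.4% of all genes did so, and above all 3 for 6, where 29.5% did. In shNS the untreated library lay below all 3 for 21 members (23.8% of all genes) and above all 3 for 13 (22.8%). Both lines were higher with doxycycline in all libraries for 11 members (7.55% of all genes) and lower for 1, Mrps6 (7.47%). Mrpl44 shows the shDis3l2 pattern, with 19.6 CPM without doxycycline and 30.3 to 33.3 with it, while shNS stood at 21.9 and 21.03 to 25.7. Its log2 effect was 0.68 in shDis3l2 (standard error 0.20, unadjusted p = 0.0103) and 0.07 in shNS, and the difference of 0.61 had a standard error of 0.27 (edgeR unadjusted p = 0.0551, adjusted p = 1). Mrpl17 stood at 81.2 CPM in untreated shDis3l2 and 119 to 176 with doxycycline (log2 effect 0.77, standard error 0.31). Mrps7, homologue of the bacterial small-subunit protein that nucleates assembly of the head, stood at 28.7 CPM without and 36.3 to 41.2 with doxycycline in shDis3l2 (0.41), and at 36.5 and 30.4 to 36.4 in shNS (-0.10). In shNS the positive log2 effects with the smallest p were those of Mrps15 (0.33), Mrps17 (0.29) and Mrpl2 (0.28), and the negative ones after Mrps6 were Mrps25 (-0.26) and Mrpl16 (-0.20). Mrpl2 and Mrpl4, homologues of bacterial core proteins of the large subunit, had positive effects in both lines, Mrpl2 of 0.28 in shNS and 0.32 in shDis3l2 and Mrpl4 of 0.20 and 0.38. In shDis3l2 the largest negative effect after that of Mrps6 was -0.19 (Mrpl23), and Mrpl45 and Mrpl50 both stood at -0.16.

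**Figure D5:**
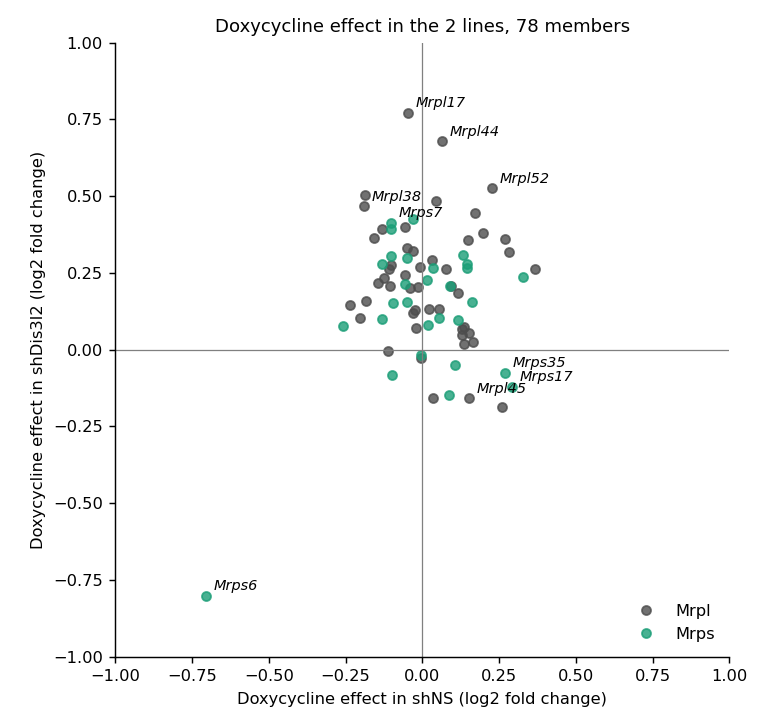
Log2 effect of doxycycline on each of the 78 genes in shNS (horizontal axis) and shDis3l2 (vertical axis), each from 3 treated libraries against 1 untreated library. Points lie mostly above 0 on the vertical axis (66 of 78) and evenly about 0 on the horizontal one (39 and 39), with Mrps6 at the lower left (-0.71 and -0.80).

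Lists of genes that work with the mitoribosome were read between lines with doxycycline against the 6.14% of all genes called and the 20.8% at an unadjusted p under 0.05. None of the 6 other mitoribosome subunits (median log2 difference -0.01), 14 mitochondrial translation factors (-0.14), 22 mitochondrial aminoacyl-tRNA synthetases (0.03) or 18 genes of mitochondrial DNA expression (-0.06) passed edgeR's test, and neither did any of 11 transcription regulators (-0.01). In the same order, 0, 3, 2, 2 and 1 of these genes had an unadjusted p under 0.05, which for the translation factors is 21.4%, near the share of all genes. Of 30 assembly factors 1 rose, Rpusd4, a pseudouridine synthase of the mitochondrial 16S rRNA (log2 change 0.78, adjusted p = 0.0187). The ribosome's own RNA genes, mt-Rnr1 and mt-Rnr2, differed by -0.23 and -0.06 (adjusted p of 0.631 and 0.914), in libraries made with ribosomal RNA removal. Of the 15 mitochondrially encoded mRNAs and rRNAs 1 fell, mt-Nd6 (-0.55, adjusted p = 0.0465). Among 81 nuclear respiratory chain genes 4 rose (Cox5a, Cox7a2, Atp5l and Atp5j2) and 1 fell (Ndufv3), which is 6.17% and near the share of all genes, with a median of -0.02. Rpusd4, Cox5a, Cox7a2 and Atp5l lie on chromosome 9, where the 3 members Mrpl3, Mrpl4 and Mrps22 differed by 0.10, 0.18 and 0.14 without being called. Cytoplasmic ribosomal protein genes had a median of 0.15, with 70 of 79 above 0. Called higher were 2 (2.53%, below the 6.14% of all genes), Rps25 (log2 change 0.85, edgeR adjusted p = 0.0227) and Rpl4 (0.67, adjusted p = 0.0419), both also on chromosome 9. The share of all chromosome 9 genes called is not given here, so these calls cannot be set apart from the chromosome. Of the 22 tested genes of the mitochondrial stress response 3 fell (13.6%), the highest share of these lists, with a median of -0.10. An unadjusted p under 0.05 in edgeR was reached by 4 of the 22 (18.2%), below the 20.8% of all genes. Slc7a11, the cystine transporter, stood at 62.4, 63.2 and 57.9 CPM in shNS and 24.8, 10.9 and 22.1 in shDis3l2 (log2 change -1.66, edgeR adjusted p = 0.0212). Lonp1, the matrix protease, stood at 143, 164 and 143 CPM in shNS and 86.1, 86.7 and 107 in shDis3l2 (-0.69, adjusted p = 0.0359). Gdf15, a secreted stress cytokine, held 15, 116 and 19 counts in shNS and 1, 1 and 0 in shDis3l2 (adjusted p = 0.0342). In the same order, these 3 genes were also lower in untreated shDis3l2, at 15.2, 88.1 and 0.0254 CPM, against 76.6, 125 and 3.65 CPM in untreated shNS.

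Doxycycline effects in these lists, none of which held a called gene, are given by their medians. In shDis3l2 the median was 0.25 for respiratory chain genes (76 of 82 above 0), 0.25 for the other mitoribosome subunits (6 of 6), 0.09 for assembly factors (23 of 30) and 0.06 for cytoplasmic ribosomal proteins (56 of 79). In shNS the same medians were 0.05, -0.01, -0.09 and 0.10. The next lists had medians in shDis3l2 from -0.21 to 0.06, the upper end being equal to that of cytoplasmic ribosomal proteins. The median was -0.03 for translation factors (6 of 14 above 0) and 0.06 for aminoacyl-tRNA synthetases (13 of 22). It was 0.02 for mitochondrial DNA expression (10 of 18) and -0.21 for transcription regulators (2 of 11). The shNS medians of these lists, in the same order, were -0.08, -0.04, -0.09 and -0.0042. For the 15 mitochondrially encoded genes the median was 0.26 in shNS (15 of 15 above 0) and 0.19 in shDis3l2 (11 of 15). The 22 tested genes of the mitochondrial stress response had a median of 0.63 in shDis3l2 (19 above 0) and -0.03 in shNS (8 above 0). That list as a whole was not summarized by library. Atf4 and Chac1, chosen from it after their values were seen, were higher in replicate 1 of shDis3l2 than in the other shDis3l2 libraries. That replicate was also the library with the highest level for 45 members. Atf4, the central transcription factor of the program, stood at 287 CPM in it against 122 and 114 in the other shDis3l2 libraries with doxycycline, 96.3 in untreated shDis3l2, and 96.6 to 142 across the shNS libraries. Its target Chac1 stood at 29.2 CPM in replicate 1 and at 4.14 and 3.31 in the other two, with 0.407 in untreated shDis3l2. The member medians without this library are those given above, and the part of the stress genes in the member values was not tested.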

How the data were processed

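The authors deposited 1 table of unnormalized expected counts per gene. Reads were handled with STAR 2.7, cutadapt and RSEM on GRCm38 (mm10), per the submitters' processing notes. What strand setting and annotation release the counting used is not given in the sources used here, so the 28 members that share exons with an opposite-strand gene and the 8 that share them with a same-strand gene are less certain than the 45 with neither. Libraries were made with a stranded kit that removes ribosomal RNA and sequenced in pairs of 150 nt, per the labels' protocols. All 55450 identifiers matched GENCODE M21.

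Expected counts were rounded (4.68 to 5.24% of values in a library changed), filtered with filterByExpr at a minimum count of 10 and scaled by TMM. Printed CPM use the TMM scale of all 8 libraries. The lines were compared with doxycycline in the 6 treated libraries (13752 genes), and doxycycline effects in all 8 as 4 groups (15250 genes, 4 residual degrees of freedom), where each lone untreated library is assumed to vary like the others. These doxycycline effects share libraries with the comparison of lines. Tests were edgeR's two-sided quasi-likelihood tests with Benjamini-Hochberg adjustment over all genes (R 4.3.3, edgeR 4.0.16), checked on simulated data. In the simulated line comparison 33% of 2-fold and 94% of 4-fold changes were called, and 15 of 142 calls were false. For the simulated doxycycline effect in shDis3l2, 2% of 2-fold and 66% of 4-fold changes were called. The changed genes were drawn from all well-counted genes and not from the members. Members had a smaller spread within the doxycycline groups (median pooled SD 0.16 against 0.28 log2 for all genes), so these shares do not describe them. A member without a call may still have changed, and the size of change that would be missed in members was not simulated. Standard errors are the absolute log2 change divided by the square root of F. The untreated pair was compared by log2 ratio with a prior count of 2. Alternatives were DESeq2 1.42.0, limma-voom (limma 3.58.1), other scalings and filters, a replicate block, all 8 libraries, and each doxycycline library left out.

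Members and lists were chosen with earlier results of these data known. The naming rule took Dis3l2, called members, the 3 members per direction with the smallest p in each test or the largest log2 ratio in the untreated pair, the 5 highest and 5 lowest per kilobase, the Mrps18 family, Mrpl12 and Mrps12, and called genes of the other lists. Other genes (such as Atf4, Chac1, Slc5a3, Mrpl17 between lines, Mrpl52 and the chromosome 9 members) were chosen after their values were seen. No effect of the replicate number shared by the lines was seen, so the main tests did not pair the samples. No pair of libraries was a repeat, the lowest chi-square per gene being 18.1.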

Additional observations from a re-analysis of the deposited data

Results flagged for a closer look

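For 11 of the 78 members, all 3 treated libraries of one line lay above that line's untreated library and all 3 of the other line lay below theirs, where 12.4% of all genes did so. The share of members was close to that of all genes, so the count is not a trait of the members. The values that follow are the log2 doxycycline effect in shDis3l2 minus that in shNS. In 8 members doxycycline libraries were higher in shDis3l2 and lower in shNS: Mrpl38 (0.657), Mrpl10 (0.525), Mrps7 (0.516), Mrps24 (0.413), Mrpl49 (0.377), Mrpl18 (0.358), Mrps11 (0.349) and Mrpl46 (0.316). In 3 members the directions were the reverse, Mrps17 (-0.412), Mrps35 (-0.344) and Mrpl45 (-0.311). The difference itself was tested by edgeR's interaction term, and none passed: the smallest unadjusted p was 0.0613 (Mrpl38), and the adjusted p was 1 for all 11. Mrpl46 and Mrps11 lie on opposite strands of chromosome 7 with overlapping starts, so without the strand setting their counts are not independent. No group held enough libraries for a test of outlying samples.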

How the results depend on the processing

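The count of 2 members called between lines with doxycycline stayed 2 under DESeq2's size factors, library size alone, a minimum of 1 CPM in 3 libraries and limma-voom, although with library size alone Mrpl45 lost its call (adjusted p = 0.0714) and Mrpl33 gained one (0.0409). It was 1 with no low-count filter, 4 under DESeq2, 1 with all 8 libraries in the fit, and 0 to 1 when each library was left out. Over all genes 845 were called, against 1749 by DESeq2 and 203 to 1157 with a library left out. The mean doxycycline effect had 1 member called by DESeq2 and 0 by edgeR. No shared effect of the replicate number was seen, since same-numbered deviations correlated at -0.12, 0.02 and -0.01. With 3 libraries per line this cannot decide whether samples were handled in pairs. With the replicate number as a block 0 members and 421 genes were called. Mrpl54 was called in 9 of 14 alternatives (log2 0.65 to 0.85) and Mrpl45 in 4 of 14 (-0.51 to -0.43), and neither changed direction. Member medians moved by less than 0.13 log2, the spread between replicates of a library's median member level, under the other scalings and filters and with each library left out. The same held without members that share exons, an alternative added after seeing the data. That spread includes replicate 1 of shDis3l2 with doxycycline, which lay apart from its group, so the limit is wide. Without that replicate the shDis3l2 doxycycline median went from 0.21 to 0.11, which is within the limit. Member medians were not computed under DESeq2's test or limma-voom. Medians near 0 did change sign: the line median with doxycycline was -0.0042 without shNS replicate 1 and -0.07 without shDis3l2 replicate 1, and the shNS doxycycline median ran from -0.04 to 0.09 with a library left out and was -0.02 with library size alone or no filter and -0.00098 with the CPM minimum. The median level per kilobase was 13.5 with union exons in place of 21.7. No called member changed direction. With 1 untreated library per line, doxycycline effects of the size seen in most members could not be told from the spread between libraries by edgeR.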

Other observations

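Many mitoribosomal genes start close to another gene on the opposite strand. Of the 78, 33 (42.3%) had the start of an opposite-strand protein-coding gene within 1000 bases of their own start, against 10.9% of 21951 protein-coding genes in the annotation. One such pair consists of members only, Mrpl46 and Mrps11 on chromosome 7. The members lie on 17 chromosomes, with the most on chromosome 11 (11 members).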
